A study of Homo sapiens with 9 samples.

Results

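Laminin chains and the molecules that anchor epithelial cells to the basement membrane were examined in BxPC3, a cell line established from a human adenocarcinoma of the pancreatic duct. The set holds 9 genes of the 60564 in the deposited table, chosen by symbol: LAMA3, LAMA5, LAMB1, LAMB2, LAMB3, LAMC1, COL17A1, NID1 and HSPG2. They were measured by RNA-seq in cells that received siRNA (short double-stranded RNA that degrades a chosen mRNA) directed at STAT3, a transcription factor activated by cytokine and growth factor receptors, in cells given WB436B, a compound of which the labels give no more than this code name and its dose of 0.1 µM, and in vehicle-treated cells. Each group had 3 libraries, called biological replicates in the labels. Cells of all groups grew in the same serum-containing medium. With no non-targeting siRNA named, the siRNA cells were set against vehicle-treated cells, and an effect of transfection itself cannot be told apart from that of losing STAT3. How long either treatment lasted is not given. Nothing beyond the term biological replicate says that replicates were separate cultures, so the spread behind each p-value may be technical.

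Laminins are secreted trimers of an alpha, a beta and a gamma chain that polymerise into the sheet on which epithelial cells sit. Nidogen (NID1) and perlecan (HSPG2) tie that sheet to the type IV collagen network. Integrins and, in hemidesmosomes, the transmembrane collagen COL17A1 tie it to the cell. LAMA3 and LAMB3 belong to the laminin that holds hemidesmosomes in stratified and glandular epithelia, whereas LAMA5, LAMB1, LAMB2 and LAMC1 belong to laminins of most other basement membranes. Loss of LAMA3, LAMB3 or COL17A1 causes junctional epidermolysis bullosa, a disease in which the epidermis lifts off its basement membrane. Pancreatic carcinoma cells grow in contact with such matrix and make part of it themselves.

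All 9 members matched RefSeq promoter windows, which run from 250 bases before to 50 bases after a gene's start in GRCh38.p14, and 5 of the 11 windows are shown. LAMA3 and COL17A1 had their lowest levels after STAT3 siRNA, LAMB3 and LAMA5 had theirs under WB436B, and LAMB1 was the member that was higher under WB436B. Capitals mark AP-1 motifs (TGANTCA) in LAMA3 and LAMB3, the letters TATAAA in COL17A1, and GC boxes (GGGCGG or, on the other strand, CCGCCC) in any window. The sequences are read along the gene's strand.
LAMA3, chr18:23872770-23873069, plus strand: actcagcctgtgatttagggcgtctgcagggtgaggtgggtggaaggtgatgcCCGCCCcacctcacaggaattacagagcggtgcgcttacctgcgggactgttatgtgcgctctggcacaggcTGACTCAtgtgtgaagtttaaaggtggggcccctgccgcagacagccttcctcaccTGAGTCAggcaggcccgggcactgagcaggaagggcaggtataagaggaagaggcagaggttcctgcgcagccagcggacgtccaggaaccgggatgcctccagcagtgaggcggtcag
COL17A1, chr10:104085831-104086130, minus strand: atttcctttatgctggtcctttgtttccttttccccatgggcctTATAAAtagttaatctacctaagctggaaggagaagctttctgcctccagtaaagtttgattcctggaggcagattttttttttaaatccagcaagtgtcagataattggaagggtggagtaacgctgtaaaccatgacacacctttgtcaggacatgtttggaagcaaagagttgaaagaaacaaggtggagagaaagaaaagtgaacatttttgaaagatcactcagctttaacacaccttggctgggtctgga
LAMB3, chr1:209651325-209651624, minus strand: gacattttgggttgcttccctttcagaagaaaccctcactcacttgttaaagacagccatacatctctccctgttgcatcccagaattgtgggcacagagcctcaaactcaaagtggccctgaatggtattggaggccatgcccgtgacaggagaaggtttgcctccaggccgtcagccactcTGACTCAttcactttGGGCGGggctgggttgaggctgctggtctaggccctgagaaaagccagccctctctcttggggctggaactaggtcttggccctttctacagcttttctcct
LAMA5, chr20:62367263-62367562, minus strand: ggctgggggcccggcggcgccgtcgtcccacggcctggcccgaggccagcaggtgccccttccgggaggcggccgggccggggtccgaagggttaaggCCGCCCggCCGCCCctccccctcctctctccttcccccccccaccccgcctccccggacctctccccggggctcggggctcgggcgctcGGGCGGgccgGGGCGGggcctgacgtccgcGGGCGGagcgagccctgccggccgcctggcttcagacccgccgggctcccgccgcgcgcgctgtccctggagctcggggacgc
LAMB1, chr7:108003112-108003411, minus strand: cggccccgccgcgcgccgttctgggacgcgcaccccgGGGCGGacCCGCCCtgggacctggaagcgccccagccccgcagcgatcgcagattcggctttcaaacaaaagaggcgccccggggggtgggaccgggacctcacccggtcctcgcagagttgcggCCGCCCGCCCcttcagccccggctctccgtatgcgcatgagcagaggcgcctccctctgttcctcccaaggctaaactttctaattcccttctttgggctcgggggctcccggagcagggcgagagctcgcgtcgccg
The LAMA3 window lies at an internal start, downstream of the first base of the gene model in GENCODE release 29, and that of LAMB3 is 1 of 3 windows listed for the gene, also downstream of the first base of the gene model. LAMA3 held 2 AP-1 motifs and this LAMB3 window held 1, while the other 2 LAMB3 windows, at the start of the gene model, held 0. The motif was present on either strand in 7.7% of the 35116 windows in the table. COL17A1 was the AT-rich window of the set, with 40.7% G and C, 1 CpG and 1 copy of TATAAA, which 11.5% of all windows held. In contrast, LAMA5 had 82.7% G and C with 5 GC boxes and LAMB1 had 71.0% with 4, and 45.0% of all windows held at least 1 GC box. The STAT motif TTCNNNGAA, read on both strands and present in 7.7% of all windows, occurred among the members only in the LAMB2 window. These are matches of letters in a window of 300 bases and say nothing about binding. The CRE letters TGACGTCA, in 1.8% of all windows, were in none of the members' windows. In LAMB1, 2 of the 4 GC boxes share letters, and no other matches overlapped in the windows shown.

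Levels are FPKM as deposited, fragments scaled by transcript length and by the mapped fragments of the library, which allow genes to be compared per length. Which length was used for a gene with several transcripts is not stated. The orders below are therefore of FPKM and need not be those of transcript numbers. In vehicle-treated cells COL17A1 was the highest member at 173 ± 13.6 FPKM (SD, n = 3), followed by LAMB3 at 81.7 ± 6.80 and LAMA5 at 67.0 ± 9.92. LAMB1 (38.4 ± 2.45 FPKM), LAMC1 (31.9 ± 1.37), LAMA3 (29.02 ± 1.79) and HSPG2 (24.4 ± 4.28) came next, and NID1 was lower at 7.82 ± 0.933. In that order the ranges of LAMB3 and LAMA5 overlapped, as did those of LAMA3 and HSPG2. Within each vehicle library, however, LAMB3 was above LAMA5 and LAMA3 was above HSPG2. Differences between genes were not tested. After STAT3 siRNA the order of the means was the same. Under WB436B LAMB1 (50.6 ± 0.772 FPKM) drew level with LAMB3 (50.5 ± 4.36) above LAMA5 (29.3 ± 2.67), and LAMA3 (26.7 ± 1.39) stood above LAMC1 (22.8 ± 0.922), with COL17A1 still first and NID1 last. LAMB2, the other laminin beta chain of the set, was listed at 0 in all STAT3 siRNA and WB436B libraries and in vehicle 3, and had 0.00309 and 0.00936 FPKM in vehicle 1 and 2, each the worth of about 1 fragment. A floor of 3 fragments per library allowed up to 0.00926 to 0.0293 FPKM, so LAMB2 was not detectable above that level and was not tested. A 0 in an FPKM table can be a failed estimate. None of 81 ribosomal protein genes was under 1 FPKM in all libraries, but other genes cannot show whether the estimate of LAMB2 failed. The other 5 laminin chains examined (LAMA1, LAMA2, LAMA4, LAMB4 and LAMC3) stayed at or under 0.272 FPKM in every library.

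The other 8 members reached 1 FPKM or more in 3 or more libraries, the filter that 12747 genes passed in all. Estimated depth was 14900000 to 20400000 fragments per library, other than 47200000 in vehicle 1, and the 8 members rested on about 435 to 60243 fragments each. STAT3 itself, the siRNA target, had 2.86 ± 0.242 FPKM in STAT3 siRNA cells, 10.7 ± 0.230 in WB436B cells and 15.8 ± 0.623 in vehicle-treated cells (SD, n = 3 each). Epithelial markers were abundant, as the labelled cell type has them: the 7 ductal markers (KRT7, KRT8, KRT18, KRT19, EPCAM, CDH1 and MUC1) summed to 1182 to 1260 FPKM after siRNA, 1101 to 1225 under WB436B and 1218 to 1274 with vehicle. Of the 8 mesenchymal markers, summed to 4.50 to 4.85, 7.86 to 10.2 and 6.53 to 7.37 FPKM in the same groups, 5 failed the filter and COL1A2 did not exceed 0.00485 FPKM. Endothelial markers summed to at most 0.382, 0.568 and 1.05 FPKM, with KDR at 0 in every library, and leukocyte markers to at most 1.74, 0.806 and 3.14 FPKM, with PTPRC at or under 0.0193 FPKM. The basal epithelial list (KRT5, KRT14, KRT17 and TP63) summed to 1463 to 1696 FPKM after siRNA, 1103 to 1184 under WB436B and 807 to 914 with vehicle. Genes within these lists moved both ways. After siRNA 5 ductal markers were called higher and 2 lower, and 2 basal markers higher and 2 lower. Under WB436B 3 ductal markers were called higher and 2 lower, and 2 basal markers higher and 2 lower. Over all tested genes 29.8% were called higher and 22.3% lower after siRNA, and 24.9% higher and 41.1% lower under WB436B. The summed mesenchymal, basal and leukocyte levels did not overlap between any groups, and the part of these marker lists in the results was not tested. Of the mesenchymal markers, VIM had means of 0.833 FPKM after siRNA, 7.98 under WB436B and 4.07 with vehicle. COL1A1 (2.28, 0.725 and 1.72) and COL3A1 (1.22, 0.0663 and 0.171) went the other way. COL3A1 passed the filter through the siRNA libraries alone. In such bulk libraries fewer cells of a kind and less RNA per cell cannot be told apart.

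**Figure D1:**
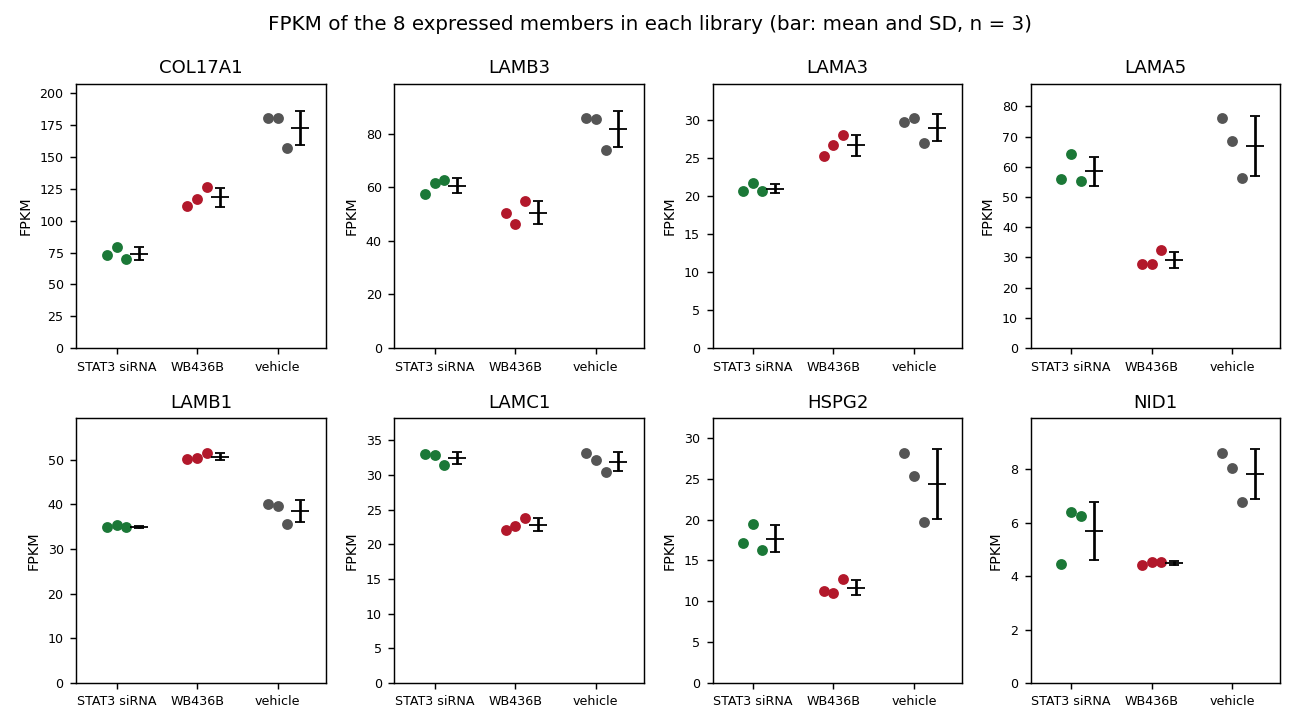
FPKM of the 8 members with measurable expression in STAT3 siRNA, WB436B and vehicle libraries, 1 point per library with mean and SD beside it (n = 3) and every axis starting at 0. COL17A1 is lowest after siRNA, at 69.8 to 79.4 FPKM, LAMA5 is lowest under WB436B, at 27.7 to 32.4 FPKM, and LAMB1 is highest under WB436B, at 50.03 to 51.5 FPKM.

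After STAT3 siRNA the chains and the collagen of the hemidesmosomal attachment were lower, and LAMC1 was not called. COL17A1 fell most, to 42.9% of its vehicle mean, and LAMA3, LAMB3, HSPG2 and NID1 fell to 72.3 to 74.1% of theirs. In all 5 of the 8 tested members were called lower and 0 higher, on log2(FPKM + 1) with limma at a Benjamini-Hochberg adjusted p below 0.05 over all tested genes. Of all tested genes 52.1% were called, 29.8% as higher and 22.3% as lower. The members' median log2 fold change was -0.41, against 0.06 over all tested genes.

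COL17A1 had 73.5, 79.4 and 69.8 FPKM after STAT3 siRNA, against 181, 181 and 157 FPKM with vehicle. The groups lay far apart, and COL17A1 differed by -1.21 on the log2 scale (SE 0.0754, limma adjusted p = 5.56e-06). LAMA3, the alpha chain of the hemidesmosomal laminin, had 20.7, 21.7 and 20.6 FPKM after siRNA and 29.8, 30.3 and 27.0 FPKM with vehicle. Its fold change was -0.45 on the log2 scale (SE 0.0577, adjusted p = 2.93e-04), with no overlap. LAMB3, the beta chain that pairs with LAMA3, had 57.5, 61.7 and 62.6 FPKM after siRNA and 85.8, 85.5 and 73.9 FPKM with vehicle, which gave -0.42 on the log2 scale (SE 0.0797, adjusted p = 2.33e-03). Of the 8 members 6 had all siRNA libraries below all vehicle libraries and 0 had them above, against 25.3% and 35.1% of all tested genes and 60.5% in either direction.

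The linkers HSPG2 and NID1 were lower with less margin. HSPG2, the heparan sulfate proteoglycan of basement membranes, had 17.2, 19.5 and 16.3 FPKM after siRNA and 28.2, 25.3 and 19.8 FPKM with vehicle, and the highest siRNA library lay just under vehicle 3. The difference was -0.44 on the log2 scale (SE 0.124, adjusted p = 0.0176 by limma). NID1, which bridges laminin and type IV collagen, had 4.45, 6.42 and 6.25 FPKM after siRNA and 8.62, 8.04 and 6.80 FPKM with vehicle, which gave -0.40 on the log2 scale (SE 0.123, adjusted p = 0.0238). Both calls depended on the settings: with library totals made equal the adjusted p was 0.0591 for HSPG2 and 0.0547 for NID1. They also depended on single libraries: HSPG2 had adjusted p = 0.0550 without vehicle 1, 0.0552 without vehicle 2, 0.0512 without siRNA 1 and 0.0601 without siRNA 3, and NID1 had 0.0793 without vehicle 1 and 0.0668 without vehicle 2. HSPG2 also shares 11.7% of its exon bases with LDLRAD2 on the other strand, and whether strand was used in counting is not stated.

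The chains of the more widespread laminins were not called after siRNA. LAMC1, their gamma chain, had 33.0, 32.9 and 31.5 FPKM after siRNA and 33.2, 32.2 and 30.5 FPKM with vehicle (log2 fold change 0.02, SE 0.0478, limma adjusted p = 0.715). The libraries of both groups interleaved, and the sign turned under median-of-ratios scaling (-0.0275). LAMA5, the alpha chain of most adult epithelial basement membranes, had 55.9, 64.1 and 55.4 FPKM after siRNA against 76.1, 68.5 and 56.4 FPKM with vehicle (log2 fold change -0.19, SE 0.114, adjusted p = 0.206). LAMB1, a beta chain of the same laminins, had 34.9, 35.3 and 34.8 FPKM after siRNA against 40.1, 39.5 and 35.6 FPKM with vehicle, and its siRNA libraries were all lower although the test missed the threshold (log2 fold change -0.13, SE 0.0487, adjusted p = 0.0554) and passed under median-of-ratios scaling (-0.18, adjusted p = 0.0150). Without vehicle 3, LAMA5 at -0.30 (adjusted p = 0.0335) and LAMB1 at -0.18 (adjusted p = 5.25e-03) passed. Vehicle 3 was the lowest vehicle library for all 8 members, as for 36.9% of all tested genes, and its median deviation from the vehicle mean was -0.14 on the log2 scale over the members and 0.00 over all genes.

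Under WB436B, LAMA5, LAMC1, HSPG2, LAMB3, NID1 and COL17A1 were lower and LAMB1 was higher. LAMA5 fell to 43.7% of its vehicle mean and HSPG2 to 47.8%, while LAMB1 rose to 131.9%. The called members numbered 7 of 8, with 6 lower and 1 higher. Of all tested genes 65.9% were called under WB436B, 41.1% as lower and 24.9% as higher, and the members' median log2 fold change was -0.61, against -0.13 over all tested genes. That last shift depended on scaling and on the filter. A median-of-ratios scaling turned the median of all genes to 0.11 and still gave 6 members lower. The share of calls that were higher was then 59.7%, against 37.7% as deposited. With a filter of 5 FPKM the median of all genes was 0.02 and that share 50.4%, and with no filter -0.02 and 29.9%.

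LAMA5 had 27.8, 27.7 and 32.4 FPKM under WB436B, against 76.1, 68.5 and 56.4 FPKM with vehicle. The groups did not overlap, and the difference was -1.16 on the log2 scale (SE 0.114, limma adjusted p = 3.12e-05). Its gamma partner LAMC1 had 21.995, 22.6 and 23.8 FPKM under WB436B and 33.2, 32.2 and 30.5 FPKM with vehicle, which gave -0.47 on the log2 scale (SE 0.0478, adjusted p = 3.92e-05). LAMB1, which completes that trimer, went the other way. Its libraries had 50.03, 50.3 and 51.5 FPKM under WB436B and 40.1, 39.5 and 35.6 FPKM with vehicle, all above, by 0.39 on the log2 scale (SE 0.0487, adjusted p = 1.29e-04). The 3 chains therefore did not move together under WB436B at the RNA level.

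Among the hemidesmosomal members the response to WB436B was uneven. LAMB3 had 50.6, 46.1 and 54.9 FPKM under WB436B against 85.8, 85.5 and 73.9 FPKM with vehicle (log2 fold change -0.68, SE 0.0797, limma adjusted p = 8.86e-05). COL17A1 had 112, 117 and 126 FPKM under WB436B against 181, 181 and 157 FPKM with vehicle (-0.54, SE 0.0754, adjusted p = 2.61e-04). Both genes were clear of vehicle in every library. LAMA3 had 25.4, 26.7 and 28.1 FPKM under WB436B against 29.8, 30.3 and 27.0 FPKM with vehicle, overlapped, and was not called at -0.11 (SE 0.0577, adjusted p = 0.114). The sign for LAMA3 turned with scaling, at 0.17 (adjusted p = 0.0210) under median-of-ratios scaling and -0.23 (adjusted p = 0.0210) under quantile normalization, and it passed at -0.16 (adjusted p = 0.0296) without vehicle 3.

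The linkers fell under WB436B as well. HSPG2 had 11.3, 11.004 and 12.7 FPKM under WB436B and 28.2, 25.3 and 19.8 FPKM with vehicle, which gave -0.99 on the log2 scale (SE 0.124, limma adjusted p = 1.34e-04). NID1 had 4.41, 4.54 and 4.52 FPKM under WB436B and 8.62, 8.04 and 6.80 FPKM with vehicle, which gave -0.68 (SE 0.123, adjusted p = 1.28e-03). Neither overlapped with vehicle. Of the 8 members 6 had all WB436B libraries below vehicle and 1 had them above, against 43.3% and 26.8% of all tested genes and 70.1% in either direction.

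**Figure D2:**
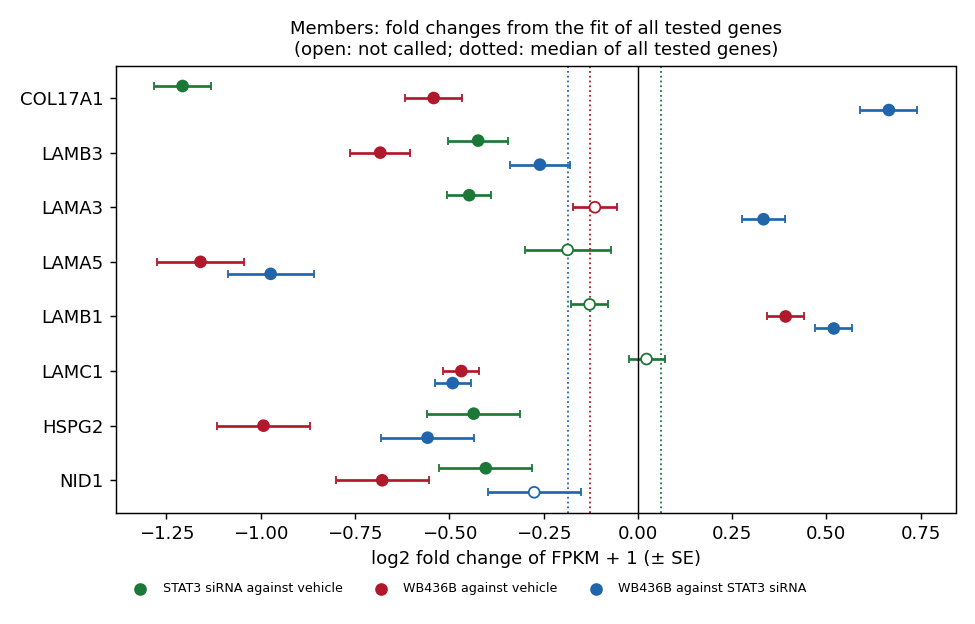
Log2 fold changes of FPKM + 1 with their standard errors for the 8 members in the 3 comparisons, from the limma fit of all tested genes; open points were not called and dotted lines mark the median of all tested genes in the same colour. COL17A1 reaches -1.21 after STAT3 siRNA, LAMA5 -1.16 under WB436B, and LAMB1 lies to the right of 0 for WB436B against both other groups.

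The direct comparison of WB436B with STAT3 siRNA is also the test of whether both treatment effects differ, since both were measured against the same vehicle libraries. It called 7 of the 8 members, 3 higher and 4 lower under WB436B. Over all tested genes 64.1% were called, 20.0% higher and 44.1% lower. The libraries of 4 members were all below and of 3 all above those of siRNA, against 47.5% and 22.7% of all tested genes and 70.2% in either direction. COL17A1 at 0.67 (SE 0.0754, limma adjusted p = 8.60e-05), LAMB1 at 0.52 (SE 0.0487, adjusted p = 2.91e-05) and LAMA3 at 0.33 (SE 0.0577, adjusted p = 1.01e-03) were higher under WB436B. LAMA5 at -0.97 (SE 0.114, adjusted p = 1.04e-04), HSPG2 at -0.56 (SE 0.124, adjusted p = 4.04e-03) and LAMC1 at -0.49 (SE 0.0478, adjusted p = 3.61e-05) were lower. The collagen and alpha chain of the hemidesmosomal attachment were thus lowest after siRNA, and the alpha and gamma chains of the widespread laminins and perlecan were lowest under WB436B.

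LAMB3 and NID1 separated the treatments less clearly. LAMB3 was lower under WB436B at -0.26 (SE 0.0797, limma adjusted p = 0.0194), with 46.1 to 54.9 FPKM under WB436B and 57.5 to 62.6 FPKM after siRNA, but had adjusted p = 0.0553 without siRNA 2, 0.0613 without siRNA 3 and 0.0685 without WB436B 2, and turned to 0.08 under median-of-ratios scaling. NID1 was not called at -0.27 (SE 0.123, adjusted p = 0.0811), and passed at -0.42 (adjusted p = 4.89e-03) without siRNA 1, the siRNA library in which it was lowest. HSPG2 kept its sign and was not called under median-of-ratios scaling (-0.23, adjusted p = 0.133).

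Across the 9 libraries, which fall into 3 groups, the correlations of the members are given as a description over n = 9 libraries on log2(FPKM + 1). Both comparisons with vehicle share the vehicle libraries. LAMA3 and COL17A1 had a Pearson r of 0.97, LAMA5 and LAMC1 0.97, and LAMA5 and HSPG2 0.95. LAMB3 had r of 0.40 with LAMA3 and 0.56 with COL17A1, and 0.96 with HSPG2, 0.94 with NID1 and 0.87 with LAMA5. LAMB1 ran against LAMC1 with r of -0.92. The tested genes most like COL17A1 were CNTRL and DPYD, with r of 0.994 each, and those most like LAMA3 were CAPN1 (0.988) and IGF2R (0.987). LAMA5 was most like PTPRS (0.996) and AL513327.3 (0.995), LAMC1 most like MZF1 and PRR12 (0.996 each), and HSPG2 most like AC018653.3 (0.994) and RAPH1 (0.993). LAMB1 was most like B4GALT2 (0.994) and ACLY (0.993), LAMB3 most like USP40 (0.989) and MBNL2 (0.988), and NID1 most like MIR6730 (0.980) and CORO1B (0.971).

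Because FPKM is a per-length measure, the mix of chains of a kind can be read within a library, where the library's scaling cancels. The length that was divided by is not stated, and the level of a share depends on it. All exons of LAMA3 together span 14678 bases, against 10661 in its longest transcript, and those of LAMB3 4688 against 4305. Equal FPKM therefore need not mean equal numbers of transcripts. Under WB436B the FPKM of both alpha chains came closer to each other, and so did those of LAMB1 and LAMB3. LAMA3 made up 47.8 ± 1.29% of the summed LAMA3 and LAMA5 FPKM under WB436B, 26.5 ± 1.02% after STAT3 siRNA and 30.4 ± 2.11% with vehicle (SD, n = 3 each). LAMB3 made up 49.9 ± 1.90% of the beta chains LAMB1, LAMB2 and LAMB3 under WB436B, 63.4 ± 1.03% after siRNA and 68.0 ± 0.467% with vehicle. None of these groups overlapped. Against vehicle the LAMA3 share was 17.4 percentage points higher under WB436B and fell by 3.91 points after siRNA, and the LAMB3 share fell by 18.1 and by 4.66 points, each with p = 0.1 in a two-sided exact permutation test, the smallest p that 3 against 3 libraries allow.

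Nidogens shifted too, a comparison chosen after the values were seen. NID2, the second nidogen, had 36.7, 41.0 and 37.2 FPKM after siRNA, 44.1, 46.3 and 49.3 FPKM under WB436B and 22.7, 21.95 and 19.4 FPKM with vehicle. It rose by 0.81 after siRNA (SE 0.0725, limma adjusted p = 3.75e-05) and by 1.09 under WB436B (adjusted p = 3.06e-06) on the log2 scale, while NID1 fell. NID1 made up 12.9 ± 1.86% of both nidogens after siRNA, 8.81 ± 0.358% under WB436B and 26.8 ± 0.761% with vehicle (SD, n = 3 each), without overlap (exact permutation p = 0.1 in each comparison).

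**Figure D3:**
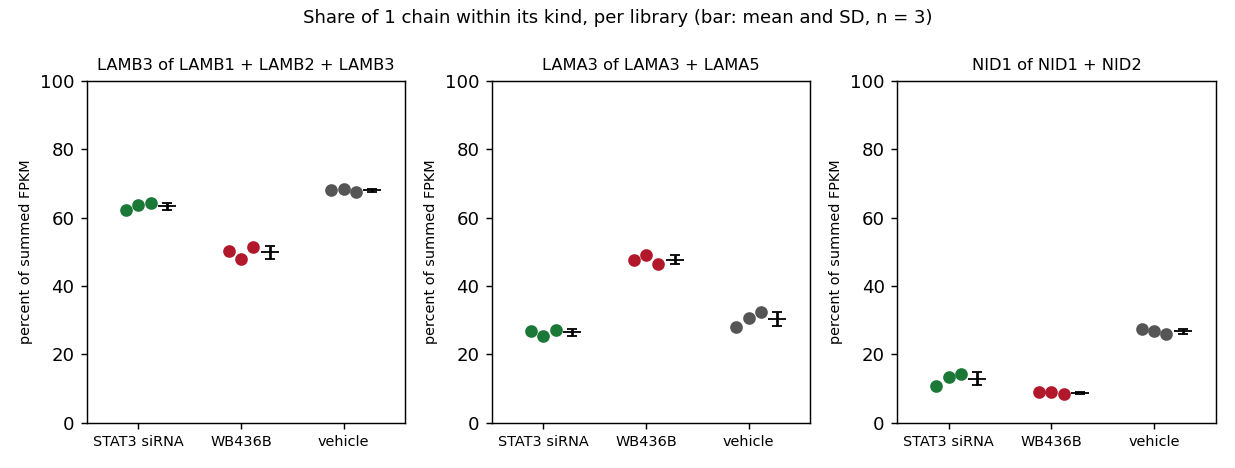
Share of LAMB3 among the beta chains, of LAMA3 among both alpha chains and of NID1 among both nidogens, in percent of summed FPKM, for STAT3 siRNA, WB436B and vehicle libraries, with mean and SD (n = 3). LAMB3 falls to 47.8 to 51.6% and LAMA3 reaches 46.5 to 49.1% under WB436B, and NID1 is at 26.0 to 27.5% with vehicle.

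Partners of the members in the basement membrane were examined in lists that were drawn up with earlier results of these data known. Their counts stand beside 29.8% of all tested genes called higher and 22.3% lower after siRNA, and 24.9% higher and 41.1% lower under WB436B, with medians over all tested genes of 0.06 and -0.13. Of the 6 type IV collagens, whose network laminin is bound to, COL4A5 and COL4A6 passed the filter and COL4A1 to COL4A4 were at or under 0.139 FPKM in every library. COL4A6 had 37.7, 38.5 and 35.9 FPKM after siRNA, 24.0, 25.8 and 27.3 FPKM under WB436B and 28.1, 29.6 and 26.9 FPKM with vehicle, and was called higher after siRNA (0.40, SE 0.0583, limma adjusted p = 6.00e-04). Under WB436B it was not called at -0.13 (adjusted p = 0.0839), passed at -0.17 (adjusted p = 0.0376) without WB436B 3, turned to 0.16 (adjusted p = 0.0294) under median-of-ratios scaling, and was called lower at -0.24 (adjusted p = 0.0146) under quantile normalization. COL4A5 had 18.3 ± 0.281 FPKM after siRNA, 14.1 ± 1.46 under WB436B and 17.3 ± 0.139 with vehicle, and was called lower under WB436B (-0.29, adjusted p = 4.89e-03). That call was lost under median-of-ratios scaling (adjusted p = 0.937).

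Of 18 other basement membrane components 8 were tested, of which 2 rose, 4 fell and 2 were not called after siRNA, and 3 rose, 4 fell and 1 was not called under WB436B. Their median log2 fold changes were -0.26 after siRNA and -0.20 under WB436B. FRAS1, which holds embryonic epithelia to the dermis, had 3.27, 3.30 and 3.07 FPKM after siRNA, 0.478, 0.583 and 0.545 FPKM under WB436B and 0.336, 0.323 and 0.276 FPKM with vehicle. It passed the filter through the siRNA libraries alone, so its level is given as a description with no test. The counts of components that rose and the medians of the list include FRAS1. TINAGL1, a matrix protein related to tubulointerstitial nephritis antigen, had 50.04, 52.9 and 49.6 FPKM after siRNA, 109, 104 and 110 FPKM under WB436B and 101, 97.9 and 92.7 FPKM with vehicle. It fell by 0.92 after siRNA (limma adjusted p = 1.89e-06) and differed between both treatments by 1.07 (adjusted p = 5.96e-07). Its call of 0.15 under WB436B (adjusted p = 0.0220) did not hold without WB436B 1, WB436B 3 or vehicle 3 (0.0584, 0.0657 and 0.0652), nor under quantile normalization (0.02, adjusted p = 0.820).

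NTN4, a netrin that binds laminin and disturbs its polymerisation, had 7.75 ± 0.337 FPKM after siRNA, 7.28 ± 0.192 under WB436B and 13.8 ± 0.102 with vehicle (SD, n = 3 each). It fell by 0.76 after siRNA and by 0.84 under WB436B (limma adjusted p = 3.82e-06 and 8.77e-07). ECM1 fell by 0.91 after siRNA (adjusted p = 2.10e-06), with 4.55 ± 0.243 FPKM after siRNA, 9.40 ± 0.205 under WB436B and 9.44 ± 0.171 with vehicle. COL7A1, the collagen of the anchoring fibrils under the epidermal basement membrane, had 41.0 ± 3.18 FPKM after siRNA, 26.6 ± 0.917 under WB436B and 45.5 ± 2.18 with vehicle. It fell by 0.75 under WB436B (adjusted p = 1.15e-05) and missed the threshold after siRNA at -0.15 (adjusted p = 0.0777), where it passed at -0.21 (adjusted p = 0.0148) without siRNA 2. FBLN1, a fibulin that binds laminin and nidogen, fell by 0.37 after siRNA and by 0.49 under WB436B (adjusted p = 6.25e-03 and 8.85e-04).

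Among hemidesmosome partners both integrin subunits were lower after siRNA. Of 5 tested genes 2 fell and 0 rose after siRNA (median log2 fold change -0.36), and 1 fell and 0 rose under WB436B (median -0.11). ITGA6, the alpha subunit of the hemidesmosomal integrin, had 67.2, 67.3 and 66.5 FPKM after siRNA, 71.0, 79.8 and 81.8 FPKM under WB436B and 86.7, 92.4 and 79.7 FPKM with vehicle. ITGB4, its beta subunit, had 46.2, 52.4 and 45.8 FPKM after siRNA, 57.3, 59.0 and 64.0 FPKM under WB436B and 67.3, 65.9 and 61.3 FPKM with vehicle. After siRNA the libraries of both subunits were all below vehicle, with log2 fold changes of -0.36 and -0.42 (limma adjusted p = 2.44e-03 and 9.43e-04). Under WB436B both overlapped vehicle and were not called, at -0.15 and -0.11 (adjusted p = 0.0777 and 0.188), with the sign turned to 0.14 and 0.18 under median-of-ratios scaling. Quantile normalization called both lower under WB436B, at -0.28 and -0.26 (adjusted p = 0.0197 and 0.0144). ITGA6 passed at -0.21 (adjusted p = 0.0258) without vehicle 3.

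ITGB4 was higher under WB436B than after siRNA, by 0.32 (limma adjusted p = 3.32e-03), a call lost under quantile normalization (0.14, adjusted p = 0.142). ITGA6 was higher by 0.21 (adjusted p = 0.0265), a call lost on leaving out any siRNA library or WB436B 2 or 3, with adjusted p of up to 0.0867, and under quantile normalization (0.05, adjusted p = 0.614), equal totals (0.0505) and no filter (0.0602). PLEC, the plectin that links the integrin to keratin filaments, was the gene called under WB436B, at -0.51 (adjusted p = 3.14e-03), and was not called after siRNA at -0.29 (adjusted p = 0.0519), where it passed without vehicle 3 (adjusted p = 3.25e-03). It had 66.3 ± 3.57 FPKM after siRNA, 56.9 ± 3.68 under WB436B and 81.9 ± 12.9 with vehicle. DST, which encodes the other plakin of hemidesmosomes, and CD151, a tetraspanin bound to laminin-binding integrins, were not called in either comparison, with adjusted p after siRNA and under WB436B of 0.721 and 0.380 for DST and of 0.302 and 0.995 for CD151. CD151 scattered from 14.8 to 36.1 FPKM.

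Of 9 laminin receptors 7 were tested, of which 2 rose and 3 fell after siRNA, and 2 rose and 4 fell under WB436B. BCAM, the receptor for the alpha chain LAMA5, had 22.1, 22.5 and 21.8 FPKM after siRNA, 8.87, 8.60 and 8.94 FPKM under WB436B and 20.5, 20.2 and 18.5 FPKM with vehicle. It fell by 1.08 under WB436B (SE 0.0470, limma adjusted p = 3.73e-07), in the same libraries in which LAMA5 was lowest, and the treatments differed by -1.24 (adjusted p = 3.23e-07). Its call of 0.16 after siRNA (adjusted p = 0.0209) was lost without siRNA 1, siRNA 2 or vehicle 3 (adjusted p = 0.0542, 0.0586 and 0.0521). SDC4, a syndecan that binds matrix through heparan sulfate, fell by 0.99 after siRNA and by 0.55 under WB436B (adjusted p = 6.65e-07 and 4.81e-06). ITGA3, which pairs with ITGB1 to bind LAMA3 and LAMA5 laminins, fell by 0.46 and 0.34 (adjusted p = 3.46e-04 and 1.35e-03), and SDC1 fell by 0.50 and 0.44 in the same order (adjusted p = 1.14e-03 and 1.40e-03). Median-of-ratios scaling ended the WB436B calls of ITGA3, SDC1 and PLEC (adjusted p = 0.547, 0.152 and 0.110).

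**Figure D4:**
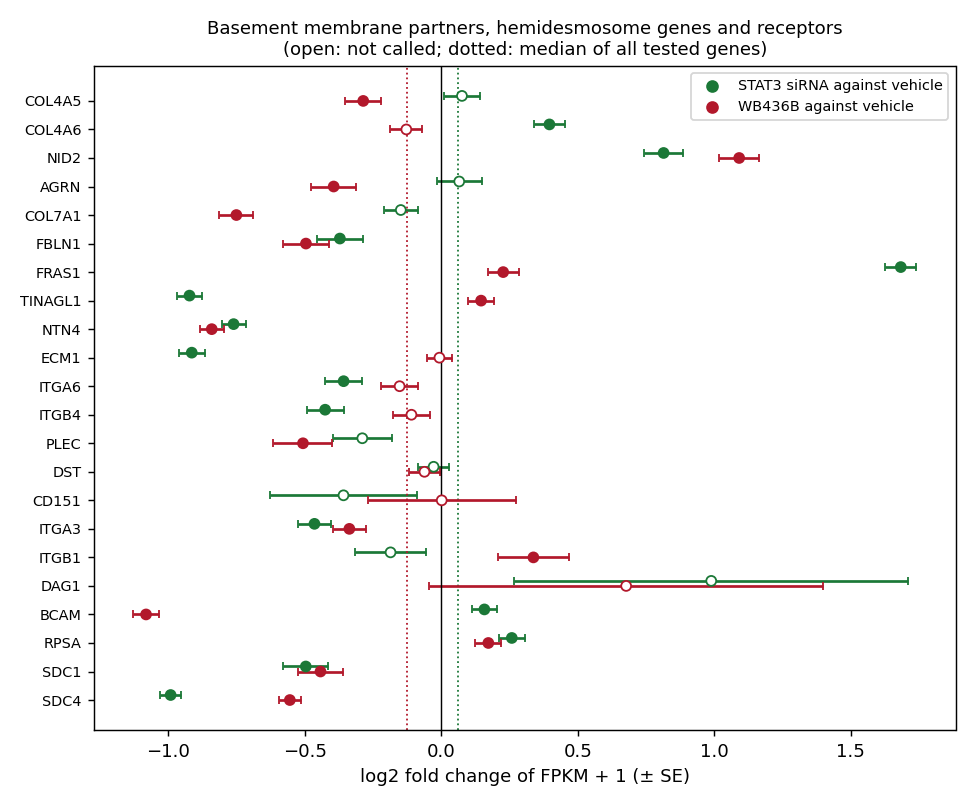
Log2 fold changes of FPKM + 1 with their standard errors for the 22 tested type IV collagens, other basement membrane components, hemidesmosome partners and laminin receptors, STAT3 siRNA and WB436B each against vehicle; open points were not called and dotted lines mark the median of all tested genes. NID2 lies to the right of 0 for both treatments, and BCAM stands at -1.08 under WB436B. FRAS1, at 1.68 after siRNA, passed the filter through the siRNA libraries alone, so its filled points are a description and not a test.

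Enzymes that cut or build this matrix were described by count. Of 17 matrix proteases and inhibitors 13 were tested, with 8 lower and 1 higher after siRNA and 9 lower and 1 higher under WB436B (median log2 fold changes -0.37 and -0.35). Over all tested genes 22.3% were called lower after siRNA and 41.1% under WB436B, with medians of 0.06 and -0.13. PLAT, the tissue plasminogen activator, had 1.85, 1.91 and 1.65 FPKM after siRNA, 4.36, 4.57 and 5.35 FPKM under WB436B and 27.5, 28.9 and 21.6 FPKM with vehicle, log2 fold changes of -3.26 and -2.22 (limma adjusted p = 3.26e-07 and 6.78e-07). MMP7, a metalloproteinase of epithelial cells, fell by 1.43 after siRNA and by 0.74 under WB436B (adjusted p = 6.70e-07 and 7.98e-06). PLAU, the urokinase plasminogen activator, fell by 0.53 after siRNA (adjusted p = 5.17e-05) and was called higher under WB436B (0.24, adjusted p = 2.90e-03), a call lost under quantile normalization (0.12, adjusted p = 0.0924). BMP1, a protease that processes laminin chains and procollagens, had 18.9 ± 1.74 FPKM after siRNA, 11.8 ± 0.426 under WB436B and 20.8 ± 0.975 with vehicle, and fell by 0.77 under WB436B (adjusted p = 1.75e-05). After siRNA it was not called at -0.14 (adjusted p = 0.128), and passed at -0.20 (adjusted p = 0.0315) without siRNA 2. TIMP3, an inhibitor of metalloproteinases that is bound in matrix, fell by 0.45 after siRNA and by 0.97 under WB436B (adjusted p = 1.48e-05 and 1.38e-07).

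Over all tested genes 29.8% were called higher and 22.3% lower after siRNA. Under WB436B 24.9% of them were called higher and 41.1% lower. Of 12 collagen folding and crosslinking enzymes, all tested, 6 rose and 3 fell after siRNA and 4 rose and 4 fell under WB436B. Both counts of falls include 1 gene, LOXL2, that had passed the filter through the vehicle libraries alone, so its falls are no test. P3H2, a prolyl hydroxylase that acts on type IV collagen, rose by 0.59 after siRNA and by 1.42 under WB436B (limma adjusted p = 2.57e-04 and 8.22e-07), whereas PLOD2, a lysyl hydroxylase, fell by 0.79 and 0.42 in the same order (adjusted p = 1.33e-05 and 2.73e-04). Of 12 enzymes that glycosylate dystroglycan, a laminin receptor, 9 were tested, with 5 higher and 0 lower after siRNA and 3 higher and 2 lower under WB436B. B3GALNT2 rose by 0.41 and 0.45 (adjusted p = 8.05e-05 and 2.10e-05). Of 14 enzymes of heparan sulfate synthesis, which make the chains that HSPG2 carries, 13 were tested, with 3 higher and 3 lower after siRNA and 4 higher and 4 lower under WB436B, 6 and 8 genes in all, where 52.1% and 65.9% of all tested genes were called. B3GALT6, which builds the linker of those chains, rose by 0.91 and 0.41 (adjusted p = 5.16e-05 and 2.66e-03). HS6ST1, a sulfotransferase acting on those chains, fell by 0.48 under WB436B (adjusted p = 1.88e-04). After siRNA it was called lower at -0.23 (adjusted p = 0.0164). That call was lost with equal totals (adjusted p = 0.108) and without vehicle 1, siRNA 1 or siRNA 3 (0.0574, 0.0503 and 0.0572).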

How the data were processed

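The values were FPKM (fragments scaled by transcript length and mapped fragments), which the authors deposited as 1 table with a column per library. Per the labels' protocols, total RNA was isolated with a Qiagen RNeasy kit and libraries followed standard Illumina procedures. Bowtie 0.12.2 and mm8, a mouse build, are listed per the submitters' processing notes, while the identifiers are human Ensembl genes. The build behind the values is therefore uncertain, and coordinates here are those of the RefSeq promoter table (GRCh38.p14). No source used here gives the quantification program. FPKM divides by a library's total, so a change in abundant genes shifts all others.

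The 12747 genes that reached 1 FPKM in 3 or more of 9 libraries were kept. The log2(FPKM + 1) scale was used, which understates fold changes of low genes. A model with a mean per group over all 9 libraries (6 residual degrees of freedom) was fitted with limma 3.58.1 (limma-trend) in R 4.3.3 and tested on simulated data. Tests were two-sided, and Benjamini-Hochberg adjustment ran over all tested genes, with a threshold of 0.05. Chain shares were tested with scipy 1.17.1. Depth estimates came from the smallest FPKM steps and union exon lengths of GENCODE release 29, which held 96.5% of the identifiers, and motifs were searched on both strands. FPKM are not counts and the depths are estimates, so no count model was used.

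The members and lists were chosen with earlier results of these data known. Members were named in full. Of each list genes were named in order of adjusted p, up to 4 per comparison and fewer for most lists. Hemidesmosome genes and type IV collagens were all named, and ITGB1 was named as the partner of ITGA3. For each member the genes with the highest Pearson r were sought. 1 gene of the lists is not reported here. Alternatives were other pseudocounts, filters, scalings, variance models, a replicate block and leaving out each library. A median-of-ratios scaling over tested genes and the nidogen share were added after seeing the data.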

Additional observations from a re-analysis of the deposited data

How the results depend on the processing

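The count of called members after STAT3 siRNA (5) was 3 with library totals made equal and 3 to 7 with 1 library left out. With a filter of 5 FPKM, which tests fewer genes, 4138 were called after siRNA, 4860 under WB436B and 4629 for WB436B against siRNA, against 6638, 8402 and 8175. The share of calls that were higher was then 57.6%, 50.4% and 44.2%, against 57.2%, 37.7% and 31.2%. With 1 library left out the counts were 5715 to 6582, 7539 to 8276 and 7400 to 8165 genes, and 7 to 8 members under WB436B and 6 to 8 for WB436B against siRNA. Median-of-ratios scaling turned LAMC1 after siRNA to -0.0275, LAMA3 under WB436B to 0.17, COL4A6 to 0.16, ITGA6 to 0.14, ITGB4 to 0.18, DST to 0.20 and ECM1 to 0.26, and LAMB3 and NID1 in WB436B against siRNA to 0.0835 and 0.0164. Over tested genes alone, the added version of that scaling gave -0.0467 for LAMC1, 0.0432 for LAMA3, 0.0294 for COL4A6, 0.0088 for ITGA6, 0.0514 for ITGB4, 0.0816 for DST and 0.14 for ECM1. Quantile normalization turned DST to 0.0348, ECM1 to 0.0364 and CD151 to -0.12 under WB436B, and equal totals turned ECM1 to 0.0585, DST to 0.0016 and, after siRNA, DST to 0.0201. Left-out libraries turned the uncalled LAMC1 after siRNA (-0.0094 to 0.0502), DST after siRNA (-0.0687 to 0.0007), ECM1 under WB436B (-0.0204 to 0.0081) and CD151 under WB436B (-0.17 to 0.21). The cause was not tested. The median of all genes under WB436B was -0.13 with FPKM as given, 0.11 by median-of-ratios and 0.03 by quantiles, and the share of calls that were higher was 37.7%, 59.7% and 52.9%. For WB436B against siRNA that share was 31.2%, 60.5% and 49.7%. No alternative turned the sign of a chain share. Same-numbered libraries deviated together weakly at most, with r of 0.04 to 0.16 for vehicle and siRNA. For vehicle and WB436B r was -0.04 to 0.04, and for siRNA and WB436B -0.08 to -0.02. Among siRNA libraries, each vehicle library had its highest r with the one of the same number. The numbers were not used as pairs in the main fit. A replicate block gave 6312, 8152 and 7959 genes and the same counts of members, 5, 7 and 7. LAMB2 rested on about 1 fragment where it was seen, in vehicle 1 at an estimated depth of 47200000 fragments and in vehicle 2 at 15600000.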
